A study of Homo sapiens with 8 samples.

Results

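The genes described here are 34 well-known transcriptional targets of p53, the tumor suppressor that is activated by DNA damage and other stress. They were located by gene symbol among the 38551 genes with values in a table of RNA-sequencing counts, and all 34 symbols were present. The list was drawn up from general knowledge, with earlier results of these data known. By role they were grouped into feedback on p53 (5 genes), cell cycle and growth arrest (6), DNA repair and nucleotide supply (4), death receptors and death-domain adaptors (5), intracellular apoptosis (8) and metabolism, redox and autophagy (6). The cells were MOLM-13, a human acute myeloid leukemia line with a rearranged KMT2A gene. Libraries of polyA RNA came from 4 samples that received the diluent DMSO and 4 samples that received 100 nM PR-957, both for 72 h. PR-957, also named ONX-0914, blocks PSMB8, a catalytic subunit of the immunoproteasome, which is the version of the proteasome that predominates in blood and immune cells. All samples were of 1 cell line, and the labels do not say whether replicates were separate cultures, so the p-values measure the spread between these samples.

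In unstressed cells p53 is kept scarce because MDM2, a ubiquitin ligase, marks it for degradation by the proteasome. When p53 accumulates, it binds a DNA element made of a tandem repeat and raises transcription of its targets, which include MDM2 itself. The targets halt the cell cycle, repair DNA, supply nucleotides, sensitize cells to death ligands, feed the mitochondrial death pathway or adjust metabolism. Through CDKN1A, p53 also lowers a set of mitotic genes, which are repressed by the DREAM complex.

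The p53 response element was searched for by its consensus, a pair of p53 repeats with no spacer (20 bases, both strands), within 2500 bases on either side of each gene start in hg38, with up to 2 letters off the consensus. An element was found for 14 of the 34 targets (41.2%), tested or not. The share was 12.6% of all 36076 genes that lie on 1 chromosome, and 11.3% of the 12845 tested ones. The genes were listed as p53 targets beforehand, so this difference is no test of the list. The elements below are those near MDM2, MDM4, CCNG1 and GADD45A, 4 of the targets with a changed level, together with the elements of PLK2 and ZMAT3, which fit the consensus at every base. Capitals mark bases that fit the consensus and lower case marks those that do not, and each is written 5′ to 3′ on the strand given.
MDM2, intron, chr12:68808923-68808942, plus strand: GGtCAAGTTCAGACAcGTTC
MDM4, intron, chr1:204516933-204516952, plus strand: GtGCTTGTTTGAAaATGCTT
CCNG1, intron, chr5:163437926-163437945, plus strand: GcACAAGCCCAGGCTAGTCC
CCNG1, intron, chr5:163439946-163439965, plus strand: GAcCTAGTCaAGACTTGCTT
GADD45A, intron, chr1:67686775-67686794, plus strand: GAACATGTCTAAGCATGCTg
PLK2, upstream, chr5:58462274-58462293, minus strand: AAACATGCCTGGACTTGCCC
ZMAT3, intron, chr3:179070188-179070207, minus strand: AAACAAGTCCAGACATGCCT

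The element of MDM2 lies 774 bases downstream of the gene start, that of MDM4 556 bases, those of CCNG1 355 and 2375 bases and that of GADD45A 1574 bases, and that of PLK2 lies upstream, at -2154 bases. A match is a description of the sequence, since binding of p53 was not measured in these libraries.

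Total counts per library ranged from 16675036 to 23111223, and groups separated on the first principal component, which held 59.5% of the variance. On the second component (13.5%), replicates 1 and 2 of both groups had positive scores (8.92 to 14.4). Replicates 3 and 4 of both groups had negative scores there (-27.8 to -2.02). DMSO replicate 4, the deepest library, lay furthest out at -27.8. All 9 myeloid markers examined reached 1 CPM (counts relative to library size, TMM-scaled) in at least 1 library of each group. Their sums were 1532 to 1603 CPM under DMSO and 1619 to 1697 CPM under PR-957. Of these markers MPO and SPI1 were higher and FLT3 and PTPRC were lower under PR-957. Of 14 markers of other cell types, 3 were at 0 in every DMSO library and 1 in every PR-957 library, and the summed level was 45.0 to 66.3 CPM under DMSO and 85.0 to 89.3 CPM under PR-957. Almost all of this came from PECAM1, which myeloid cells also express, and without it the sums were 2.38 to 3.98 and 2.40 to 4.33 CPM. The part of these markers in the results below was not tested. In bulk RNA, fewer cells of a type and less RNA per cell cannot be told apart.

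Transcript levels, compared between genes as CPM per kb of annotated exon, spanned a wide range under DMSO. CCNG1, which encodes cyclin G1, was highest at 69.9 ± 1.92 (SD, n = 4), followed by TRIAP1 at 58.9 ± 4.70 and the death receptor TNFRSF10B at 43.0 ± 1.45. GADD45A and DDB2 followed at 17.9 ± 0.972 and 17.3 ± 0.490, closer to each other than their spread. KITLG, CYFIP2, PLK2, TP53I3 and TP53INP1 lay between 0.444 and 1.21. At the bottom, SPATA18 had no count in any library. PERP had 10 counts in all DMSO libraries together and 9 in all PR-957 libraries, and EDA2R had 13 and 20, so both were near the limit of 3 counts per library at which a 0 can be read. These 3 genes did not pass the filter on low counts, and no fold change is given for them.

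**Figure D1:**
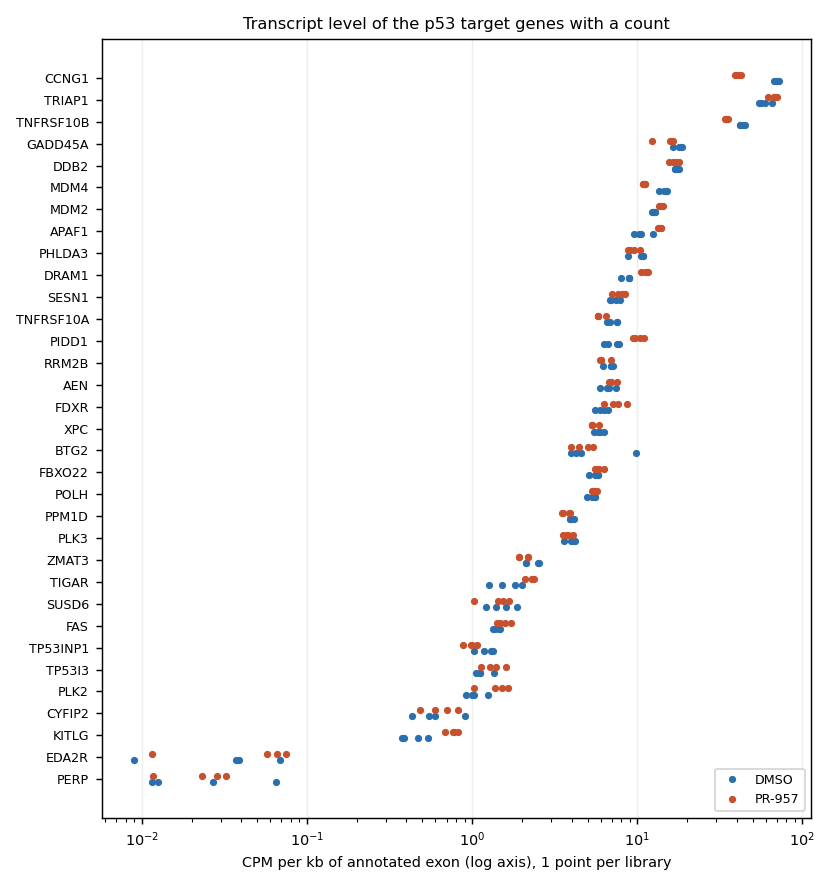
Level of each p53 target gene with at least 1 count, in CPM per kb of annotated exon on a log axis, with 1 point per library (blue, DMSO, lower of each pair of rows; red, PR-957, upper). CCNG1 leads under DMSO at a mean of 69.9, and PERP and EDA2R lie far below the others. The colors do not overlap for 12 of the 31 tested genes, beside 42.5% of all genes tested. Among the 12 are CCNG1, TNFRSF10B, MDM4, PIDD1, DRAM1 and KITLG.

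Of the 31 targets that passed the filter, 8 were higher and 5 lower under PR-957 at an adjusted p under 0.05 (quasi-likelihood test of edgeR, adjusted over all 13179 genes tested). That is 41.9% of the targets, where 46.6% of all genes tested passed the same threshold, 23.1% as higher and 23.5% as lower, so the share of targets called was near the background. With library totals alone in place of TMM scaling, 11 targets were higher and 3 lower, where 30.9% of all genes were higher and 17.9% lower. The median log2 fold change of the targets was 0.04, beside 0.003 for all genes, and the values ran from -0.78 to 0.77. This median was -0.053 without DMSO replicate 2, -0.040 without PR-957 replicate 4, -0.022 in replicates 3 and 4 only and 0.118 with library totals alone, so its sign was not stable. The 4 DMSO and 4 PR-957 libraries did not overlap for 12 of the 31 targets, which compares with 42.5% of all genes. At least 1.5-fold changes past the threshold were found for 2 targets, CCNG1 and KITLG, and for 13.8% of all genes. Without DMSO replicate 4, 8 targets were again higher and 5 lower (47.2% of all genes called). The called targets moved in both directions, most by under 1.5-fold. Each group of roles held only 0 to 3 called members, too few to set a direction of a role against the shares of all genes. The differences between role groups are given as counts and were not tested.

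**Figure D2:**
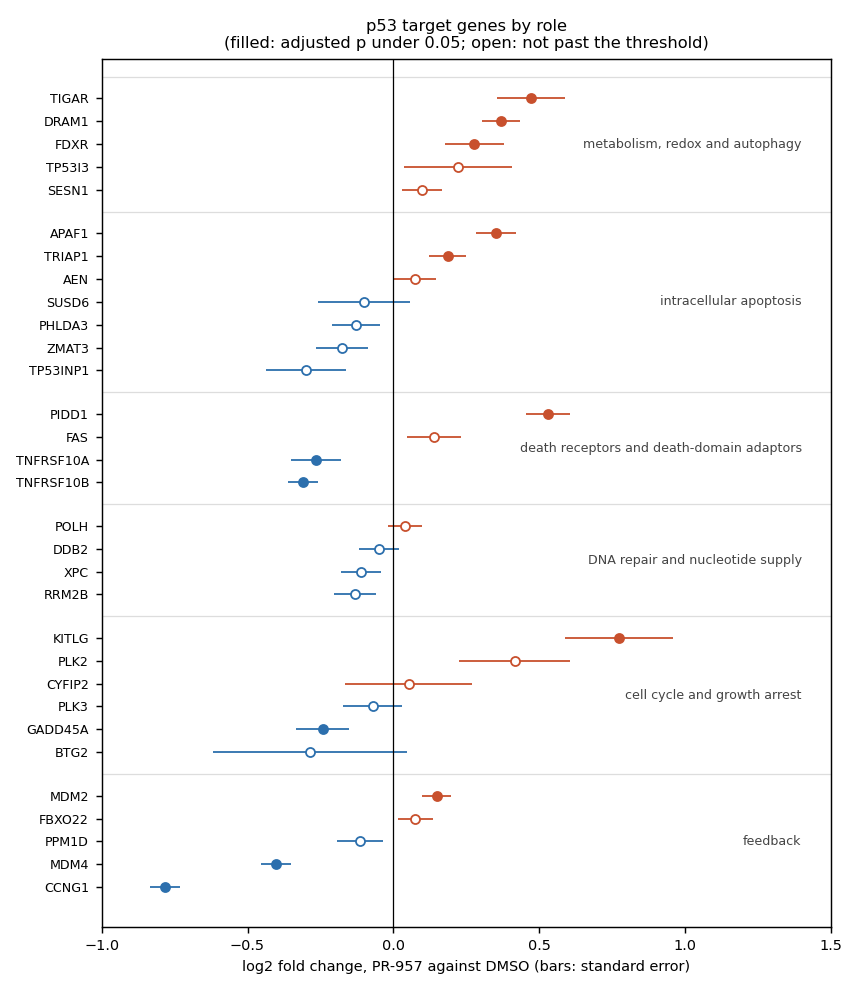
Log2 fold change of PR-957 against DMSO for the 31 tested p53 target genes, in panels by role, with bars of 1 standard error; filled points passed an adjusted p under 0.05 and open points did not. The metabolic targets lie right of 0, the DNA repair targets cluster around 0 with no filled point, and the feedback group holds the lowest value, CCNG1 at -0.78.

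Among the 5 genes of feedback on p53, CCNG1 and MDM4 fell and MDM2 rose, beside 23.1% of all genes higher and 23.5% lower. CCNG1, whose product recruits a phosphatase that acts on MDM2, lies on chromosome 5 (163437571 to 163448199). In the DMSO libraries, replicates 1 to 4, CCNG1 stood at 321, 310, 332 and 325 CPM, and in the PR-957 libraries at 181, 197, 189 and 182 CPM. Every PR-957 library was below every DMSO library, a log2 fold change of -0.78 (adjusted p = 5.55e-10, SE 0.05), and the fitted level fell by 41.8%. The exons of CCNG1 share 33.1% of their bases with NUDCD2 on the opposite strand, whose own log2 fold change was 0.05 (adjusted p = 0.581).

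MDM4, the partner of MDM2 that binds p53 and holds its transcriptional activity down, lies on chromosome 1 (204516377 to 204558120). MDM4 was at 157, 159, 143 and 153 CPM under DMSO and at 115, 117, 114 and 118 CPM under PR-957. The groups did not overlap, and the log2 fold change was -0.40 (adjusted p = 4.42e-06, SE 0.05). MDM2 itself, on chromosome 12 (68808149 to 68850686), was at 156, 165, 163 and 159.7 CPM under DMSO and at 184, 179, 176 and 174 CPM under PR-957. Its groups also did not overlap, yet the log2 fold change was only 0.15 (adjusted p = 0.0203, SE 0.05). The call of MDM2 was lost without DMSO replicate 1 (0.13, adjusted p = 0.0657), without PR-957 replicate 1 (0.13, adjusted p = 0.0594), with no filter on low counts (adjusted p = 0.0653) and in replicates 3 and 4 only (0.11, adjusted p = 0.256). The remaining feedback genes did not pass the threshold. PPM1D, a phosphatase that dephosphorylates p53, had a log2 fold change of -0.11 (SE 0.08). FBXO22, part of a ubiquitin ligase that acts on p53, had 0.08 (SE 0.06). The exons of FBXO22 share 79.9% of their bases with NRG4 on the opposite strand, which was between 16.1 and 24.6 CPM and fell by 0.40 on the log2 scale (adjusted p = 0.00072). The part of this overlap in the value of FBXO22 was not tested. With library totals alone FBXO22 passed (0.15, adjusted p = 0.0333).

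In the cell cycle and growth arrest group, KITLG rose and GADD45A fell, out of 6 genes, beside 23.1% of all genes higher and 23.5% lower. KITLG, the ligand of the receptor KIT, lies on chromosome 12 (88492793 to 88580473) and was at 2.57, 2.12, 2.05 and 2.93 CPM under DMSO. Under PR-957 it was at 4.18, 4.49, 4.25 and 3.71 CPM, so that every PR-957 library was above every DMSO library. The log2 fold change was 0.77 (adjusted p = 0.00189, SE 0.18), the highest of the targets, at a low level of 180 counts in all DMSO libraries and 320 in all PR-957 libraries. In replicates 3 and 4 only, it was 0.66 (adjusted p = 0.0755). GADD45A, a stress sensor that binds CDK1 and PCNA, lies on chromosome 1 (67685201 to 67688334). GADD45A was at 25.4, 22.4, 24.9 and 24.2 CPM under DMSO and at 22.2, 16.7, 21.6 and 21.4 CPM under PR-957. The lowest DMSO library was just above the highest PR-957 library, and replicate 2 was lowest in both groups. The log2 fold change was -0.24 (adjusted p = 0.0337, SE 0.09). Its call depended on single libraries. Without PR-957 replicate 2 the log2 fold change was -0.16 (adjusted p = 0.130), without DMSO replicate 1 it was -0.22 (adjusted p = 0.0802) and without DMSO replicate 3 it was -0.23 (adjusted p = 0.0740). With library totals alone it was -0.16 (adjusted p = 0.146), and in replicates 3 and 4 only -0.20 (adjusted p = 0.183).

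The other 4 genes of the group did not pass. BTG2, an antiproliferative gene that is among the most readily induced p53 targets, was at 11.6, 10.8, 12.5 and 27.0 CPM under DMSO and at 10.9, 13.7, 12.1 and 14.8 CPM under PR-957. DMSO replicate 4 was far above every other library, and the log2 fold change of -0.29 (SE 0.33) became 0.14 without it (adjusted p = 0.325). PLK2, a stress-induced kinase with a full consensus element, was at 2.82, 3.56, 2.90 and 2.62 CPM under DMSO and at 4.29, 4.70, 3.93 and 2.92 CPM under PR-957. PR-957 replicate 4 lay within the DMSO range while the other 3 PR-957 libraries lay above it. The log2 fold change of PLK2 was 0.42 (adjusted p = 0.0825, SE 0.19), and it did pass once PR-957 replicate 4 was left out (0.53, adjusted p = 0.0337). PLK3 had -0.07 (SE 0.10). CYFIP2 had 0.05 (SE 0.22), which was 0.31 without DMSO replicate 4 and -0.09 without DMSO replicate 2.

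None of the 4 targets of DNA repair and nucleotide supply passed the threshold, at an adjusted or at an unadjusted p under 0.05, by the edgeR test. None passed in DESeq2 or limma-voom either, where 45.2% and 46.8% of all genes did. XPC, which recognizes damaged bases in nucleotide excision repair, ranged from 31.0 to 36.0 CPM under DMSO and from 30.2 to 33.3 CPM under PR-957. DDB2, which recognizes ultraviolet lesions, ranged from 31.1 to 33.2 and from 28.8 to 33.0 CPM. POLH, the polymerase that copies past such lesions, ranged from 56.5 to 63.2 and from 60.5 to 64.3 CPM. RRM2B, the p53-inducible subunit of ribonucleotide reductase, ranged from 31.1 to 36.0 and from 30.0 to 34.8 CPM. In all 4 genes the groups overlapped. The log2 fold changes were -0.11 for XPC, -0.05 for DDB2, 0.04 for POLH and -0.13 for RRM2B, each with an SE of 0.06 or 0.07. The 95% intervals reached from -0.27 for RRM2B to 0.15 for POLH, so that larger shifts in either direction lay outside them.

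Both TRAIL receptors fell and the death-domain protein PIDD1 rose, while FAS did not pass the threshold. That is 1 higher and 2 lower of 4 tested genes, beside 23.1% of all genes higher and 23.5% lower. TNFRSF10B, the TRAIL receptor also named DR5, was at 168, 174, 167 and 179 CPM under DMSO and at 138, 138, 136 and 143 CPM under PR-957, with no overlap. The log2 fold change of TNFRSF10B was -0.31 (adjusted p = 5.5e-05, SE 0.05). TNFRSF10A, the other TRAIL receptor that signals death, was at 20.4, 20.3, 17.7 and 18.5 CPM under DMSO and at 15.5, 17.4, 15.7 and 15.5 CPM under PR-957. Its groups came close but did not overlap, at a log2 fold change of -0.26 (adjusted p = 0.0150, SE 0.08). The call of TNFRSF10A was lost with library totals alone (-0.19, adjusted p = 0.0811) and in replicates 3 and 4 only (-0.23, adjusted p = 0.178). FAS, the receptor of FAS ligand, ranged from 12.7 to 13.9 CPM under DMSO and from 13.4 to 16.3 CPM under PR-957 and did not pass (0.14, SE 0.09, adjusted p = 0.232). PIDD1, a death-domain protein that forms the PIDDosome with caspase-2, lies on chromosome 11 (799179 to 809867). PIDD1 was at 40.0, 40.8, 35.0 and 33.2 CPM under DMSO and at 58.5, 51.2, 55.1 and 49.9 CPM under PR-957. Its libraries separated with a wide gap, and the log2 fold change was 0.53 (adjusted p = 1.12e-05, SE 0.08). EDA2R, the receptor of ectodysplasin A2, was not tested.

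Of the 7 tested genes of intracellular apoptosis, APAF1 and TRIAP1 rose and none fell, beside 23.1% of all genes higher and 23.5% lower. APAF1, the core of the apoptosome that activates caspase-9, lies on chromosome 12 (98645141 to 98735433). APAF1 was at 71.8, 79.4, 77.8 and 94.1 CPM under DMSO and at 100.4, 105, 102 and 105 CPM under PR-957. DMSO replicate 4 was nearest to the PR-957 libraries, but the groups did not overlap (log2 fold change 0.35, SE 0.07, adjusted p = 0.00034). The exons of APAF1 share 39.95% of their bases with ANKS1B on the opposite strand, which was between 0.111 and 0.679 CPM in the 8 libraries, so few fragments were assigned to that strand. TRIAP1, a small inhibitor of the apoptosome pathway that also carries lipid in mitochondria, was at 67.9, 64.7, 75.3 and 63.2 CPM under DMSO and at 80.9, 77.9, 77.7 and 71.8 CPM under PR-957. PR-957 replicate 4 lay below DMSO replicate 3, so the groups overlapped, and the log2 fold change was 0.19 (adjusted p = 0.0211, SE 0.06). The call of TRIAP1 was lost without DMSO replicate 2 (0.16, adjusted p = 0.0678), without PR-957 replicate 1 (0.16, adjusted p = 0.0664), without PR-957 replicate 3 (0.18, adjusted p = 0.0521) and in replicates 3 and 4 only (0.11, adjusted p = 0.383).

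The other 5 tested genes of this group did not pass. AEN, an apoptosis-enhancing nuclease, had a log2 fold change of 0.07 (SE 0.07), and PHLDA3, an inhibitor of AKT signaling, had -0.13 (SE 0.08). ZMAT3, an RNA-binding protein and the second gene with a full consensus element, had -0.18 (adjusted p = 0.115, SE 0.09). It passed in replicates 1 and 2 only (-0.30, adjusted p = 0.0220) and had -0.05 in replicates 3 and 4 only. TP53INP1, which promotes p53-dependent death and autophagy, had -0.30 (adjusted p = 0.0808, SE 0.14), and without DMSO replicate 3 it passed (-0.37, adjusted p = 0.0451). SUSD6 had -0.10 (SE 0.16). PERP, a membrane protein of desmosomes and of p53-dependent death, was not tested.

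Of the metabolic, redox and autophagy targets, 3 of the 5 tested genes were higher and none lower, beside 23.1% and 23.5% of all genes. All 5 values were above 0, with a median log2 fold change of 0.28. TIGAR, a bisphosphatase that slows glycolysis, lies on chromosome 12 (4321213 to 4360028). TIGAR was at 14.9, 16.4, 12.4 and 10.4 CPM under DMSO and at 19.4, 19.1, 19.0 and 17.2 CPM under PR-957. Every PR-957 library was above the highest DMSO library, at a log2 fold change of 0.47 (adjusted p = 0.00265, SE 0.12). DRAM1, a lysosomal membrane protein that promotes autophagy, lies on chromosome 12 (101877327 to 101923623) and was at 32.6, 32.6, 32.7 and 29.2 CPM under DMSO and at 41.8, 38.6, 40.9 and 42.7 CPM under PR-957. The groups of DRAM1 did not overlap (log2 fold change 0.37, SE 0.07, adjusted p = 0.00015). FDXR, a mitochondrial reductase that passes electrons to ferredoxin, was at 13.5, 15.3, 16.1 and 14.4 CPM under DMSO and at 15.2, 17.2, 20.8 and 18.4 CPM under PR-957. PR-957 replicate 1 lay within the DMSO range, and the log2 fold change was 0.28 (adjusted p = 0.0286, SE 0.10). The call of FDXR was lost without DMSO replicate 1 (0.24, adjusted p = 0.0895), without PR-957 replicate 3 (0.20, adjusted p = 0.145), without PR-957 replicate 4 (0.26, adjusted p = 0.0620) and in replicates 1 and 2 only (0.17, adjusted p = 0.275). SESN1, a sestrin that restrains mTORC1, had 0.10 (adjusted p = 0.262, SE 0.07), and TP53I3, a quinone oxidoreductase, had 0.22 (adjusted p = 0.341, SE 0.18). SESN1 passed in replicates 1 and 2 only (0.21, adjusted p = 0.0368) and had -0.02 in replicates 3 and 4 only. SPATA18, a mitochondrial quality control gene, was at 0 throughout.

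**Figure D3:**
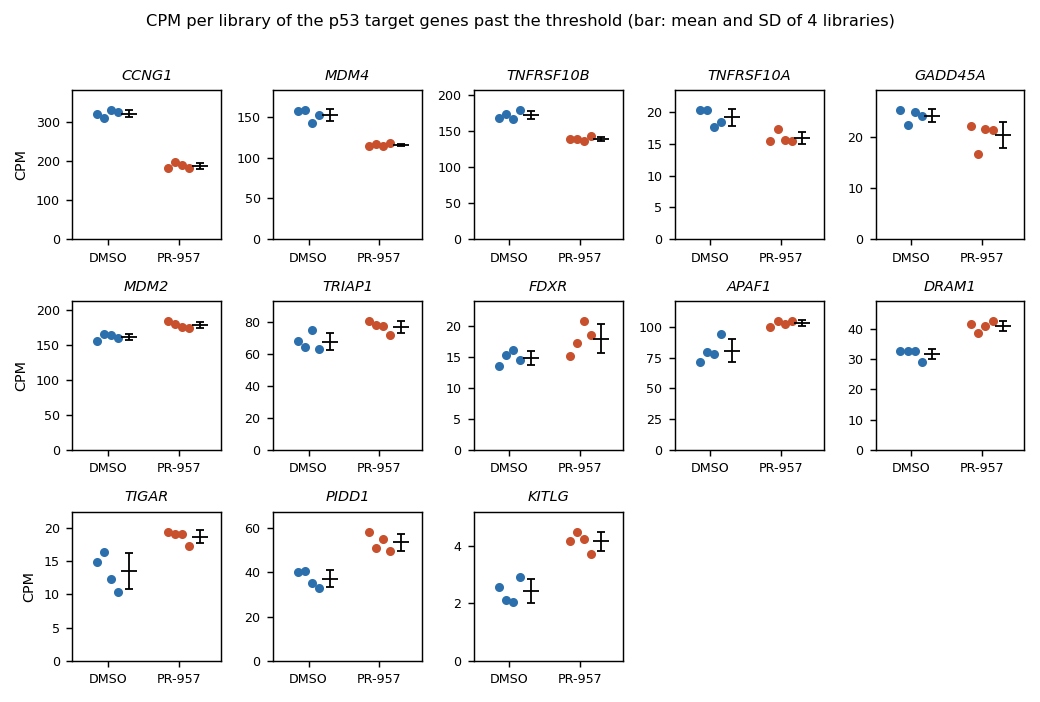
CPM in each library for the 13 p53 target genes past the threshold, ordered from the lowest to the highest log2 fold change, with points for 4 DMSO (blue) and 4 PR-957 (red) libraries and black bars for mean and SD; each vertical axis starts at 0. CCNG1 falls from above 310 to below 197 CPM, while TRIAP1 and FDXR overlap between groups.

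Within the window around the gene start, 1 of the 8 targets that rose (MDM2) and 4 of the 5 that fell had an element, as did 7 of the 18 tested targets that did not pass. The difference between these shares was not tested. Among all tested genes on 1 chromosome the share with an element was 11.6% of those higher and 11.5% of those lower. The absence of a match says only that these letters are not in this window.

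Of 20 upstream regulators of p53 on a list of general knowledge, 3 were higher and 5 lower (beside 23.1% and 23.5% of all genes), with a median log2 fold change of -0.04. With library totals alone, 5 were higher and 3 lower (beside 30.9% and 17.9% of all genes), with a median of 0.04. Among those past the threshold with an average log2 CPM of at least 1, the largest change was in H2AX. This histone variant, which is phosphorylated at DNA breaks, rose from 78.0 ± 5.16 to 113 ± 9.34 CPM (log2 fold change 0.53, SE 0.07, adjusted p = 2.4e-06). The highest log2 fold change of the list, 1.02, was of a gene that did not pass. RPL5 and RPL11, ribosomal proteins that can bind MDM2, fell by 0.47 and 0.34 on the log2 scale (adjusted p = 1.76e-06 and 0.000117).

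Of 50 further p53-activated genes, 47 were tested. Of these, 10 were higher, a share of 21.3% beside 23.1% of all genes, and 16 lower, beside 23.5% of all genes. The median log2 fold change was -0.11. With library totals alone, 12 were higher and 11 lower, beside 30.9% and 17.9% of all genes, and the median was -0.03. CDKN1A, the cell cycle inhibitor that is the best known p53 target, was at 189, 199, 179.6 and 197 CPM under DMSO and at 152, 163, 131 and 125 CPM under PR-957. It fell in every PR-957 library, by 0.42 on the log2 scale (adjusted p = 0.000143, SE 0.07). BBC3, which encodes the BH3-only protein PUMA, was at 26.6, 24.8, 21.7 and 29.3 CPM under DMSO and at 11.4, 10.4, 13.1 and 10.4 CPM under PR-957 (log2 fold change -1.17, SE 0.10, adjusted p = 2.65e-08). PMAIP1, which encodes the BH3-only protein NOXA, was at 36.8, 36.8, 35.4 and 42.6 CPM under DMSO and at 18.4, 19.1, 17.4 and 16.9 CPM under PR-957 (log2 fold change -1.08, SE 0.08, adjusted p = 1.81e-09). Both BH3-only genes thus fell more than any of the 31 tested targets. BAX, the pore-forming effector that they activate, went the other way, from 104 ± 7.08 to 128 ± 8.42 CPM (log2 fold change 0.30, SE 0.06, adjusted p = 0.00061). GDF15, a secreted stress cytokine, fell from 4.30 ± 0.656 to 0.420 ± 0.0614 CPM (log2 fold change -3.35, SE 0.25, adjusted p = 2.83e-09). Its level under PR-957 was low, not far above the limit of 0.131 to 0.188 CPM for a count of 0. ATF3, a stress transcription factor, fell by 1.74 and TP53INP2, an autophagy gene, rose by 1.58 on the log2 scale (adjusted p = 1.74e-09 and 7.39e-06). SESN2 had 8 counts in all DMSO libraries and 1 in all PR-957 libraries, and is also placed on an alternate contig, so its level is not given.

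**Figure D4:**
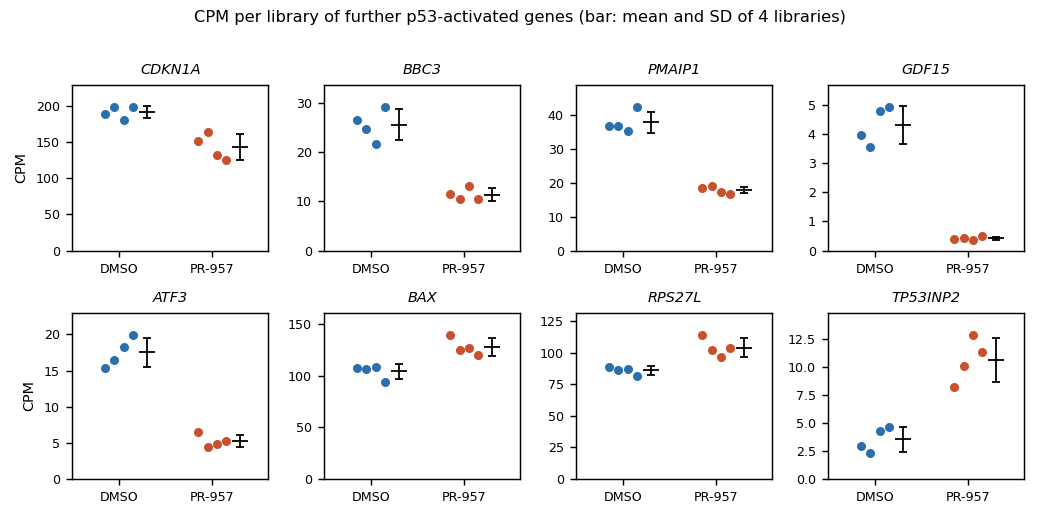
CPM in each library for 8 further p53-activated genes, with points for 4 DMSO (blue) and 4 PR-957 (red) libraries, black bars for mean and SD, and vertical axes that start at 0. CDKN1A, BBC3, PMAIP1, GDF15 and ATF3 lie lower under PR-957 and BAX, RPS27L and TP53INP2 lie higher, with no overlap in any of the 8 genes. These 8 do not stand for the list. Of its 47 tested genes, 21 did not overlap, beside 42.5% of all genes.

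Among 20 mitotic genes that p53 represses through DREAM, 15 were higher, none lower and 5 did not pass, with a median log2 fold change of 0.30, beside 23.1% of all genes higher. CDC20, the activator of the anaphase-promoting complex, was at 79.0, 88.3, 92.4 and 86.2 CPM under DMSO and at 149, 144, 140.5 and 142 CPM under PR-957. The libraries of CDC20 did not overlap, and the log2 fold change was 0.73 (adjusted p = 4.51e-09, SE 0.06). CENPA, the centromeric histone, rose by 0.72 and BIRC5, which encodes survivin, by 0.48 on the log2 scale (adjusted p = 4.05e-07 and 9.25e-07). The count of 15 became 17 with library totals alone, where 30.9% of all genes were higher. In replicates 3 and 4 only it became 12, where 17.3% of all genes were higher. None was lower in either.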

How the data were processed

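RNA-sequencing libraries (TruSeq kit, 150 bp paired-end reads) were analysed from 4 DMSO and 4 PR-957 samples of MOLM-13, grouped by their titles. The authors trimmed reads with Trimmomatic 0.39, aligned them to hg38 with STAR 2.7.10a and, per the file headers, counted fragments with featureCounts 2.0.1 on the reverse strand against NCBI RefSeq models. The deposited values are raw counts per gene, with no normalization. The counting command named 16 libraries, of which the table holds 8. Of the rows, 6 held no values. The authors' own DESeq2 comparison, with fold changes and p-values, was not used.

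Counts of all genes passing filterByExpr (13179 genes) were fitted in edgeR 4.0.16 (R 4.3.3) with TMM scaling and the robust quasi-likelihood test, two-sided, without covariates. Benjamini-Hochberg adjustment covered all genes tested, with a threshold of 0.05. CPM were TMM-scaled. Intervals (95%) are estimates ± 1.96 standard errors. The fit was tested on simulated data. Alternatives were DESeq2 1.42.0, limma-voom (limma 3.58.1), other scalings and filters, a replicate block, a batch term, subsets of replicates and leaving out each library.

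Targets and lists were chosen from general knowledge with earlier results of these data known. Named were all 34 targets, CDKN1A, BAX, BBC3, PMAIP1, GDF15, SESN2 and the 3 genes with the largest change past the threshold, at an average log2 CPM of at least 1, in each further list. A further gene of this rule is not reported here. The overlapping genes and RPS27L were named after their values were seen. Gene coordinates are those of the count table. Exons of 13 targets share bases with a gene on the opposite strand and those of 1 target, AEN, with a gene on the same strand. The kit name does not state a strand protocol. Response elements were read from hg38, where 90.2% of 387 exon ends of the targets were followed by GT and none was after a shift of 1 base.

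Depth of 16675036 to 23111223 counts per library sets a limit of 3 counts, or 0.131 to 0.188 CPM, for a count of 0. This covers counting error only. No pair of replicates agreed within sampling noise, so each library counted as 1 sample.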

Additional observations from a re-analysis of the deposited data

Results flagged for a closer look

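Each of the 44 genes named by rule and tested was examined in both groups for a library that stood apart from the other 3, taken as a gap to the nearest library above the 95% critical value of Dixon's ratio. Of 88 groups, 9 were picked out (10.2%), where chance gives about 5%. BTG2 in DMSO replicate 4 was at 27.0 CPM against 10.8 to 12.5 CPM in the other DMSO libraries, and DRAM1 in the same library was at 29.2 CPM against 32.6 to 32.7 CPM. In PR-957 replicate 2, GADD45A was at 16.7 CPM against 21.4 to 22.2 CPM, XPC at 33.3 CPM against 30.2 to 30.3 CPM and TNFRSF10A at 17.4 CPM against 15.5 to 15.7 CPM. RRM2B in PR-957 replicate 4 was at 34.8 CPM against 30.0 to 30.4 CPM. PHLDA3 in DMSO replicate 3 was at 25.2 CPM against 30.2 to 31.1 CPM. RPL11 in DMSO replicate 2 was at 2434 CPM against 2655 to 2681 CPM, and CENPA in DMSO replicate 1 was at 17.9 CPM against 20.5 to 21.0 CPM.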

How the results depend on the processing

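Over 19 alternatives, the 44 tested genes named by rule gave 836 values, of which 798 kept their direction and their side of the threshold, 20 lost and 7 gained the threshold, and 11 reversed. None of the 13 called targets reversed, and 7 of them (CCNG1, MDM4, TNFRSF10B, PIDD1, APAF1, TIGAR and DRAM1) passed in all 19 alternatives. The other 6 lost their call in at least 1, and 5 of 18 uncalled targets gained 1. With library totals alone, 11 targets were higher and 3 lower, beside 30.9% and 17.9% of all genes. The median log2 fold change of the targets was then 0.118, while the median of all genes moved by 0.0777. In replicates 3 and 4 only, 5 targets were higher and 3 lower, with a median of -0.022, where 17.3% of all genes passed in each direction. In replicates 1 and 2 only, 8 were higher and 6 lower, with a median of 0.02, where 20.2% of all genes passed in each direction. Leaving out single libraries gave 6 to 8 targets higher and 4 to 5 lower, beside 19.6% to 23.4% and 20.2% to 23.7% of all genes. The median of the targets was then -0.053 (without DMSO replicate 2) to 0.0384, and it was -0.040 without PR-957 replicate 4. The cause was not tested. Reversed values, all of uncalled targets, were 0.13 for BTG2 and -0.02 for POLH in replicates 1 and 2 only, 0.0064 for PLK3 and 0.0298 for DDB2 with library totals alone, and -0.02 for SESN1 in replicates 3 and 4 only. With single libraries left out, BTG2 ran from -0.429 to 0.141, CYFIP2 from -0.092 to 0.306 and SUSD6 from -0.192 to 0.0197. Same-numbered replicates deviated together with correlations of 0.151, 0.213, 0.098 and 0.198, and PR-957 replicate 3 correlated best with DMSO replicate 4 (0.105). Between the DMSO and PR-957 groups, replicates 1 and 2 correlated positively (0.074 to 0.213), as did replicates 3 and 4 (0.090 to 0.198). Correlations between these 2 sets were all negative (-0.187 to -0.041). The numbers were not taken to pair single samples, but the 2 sets were shared by both groups. The labels do not say what set them apart. With a term for these sets, 8 targets were higher and 5 lower, and 50.6% of all genes passed. With the replicate number as a block, 8 targets were higher and 5 lower, with a median of 0.039, and the count over all genes moved from 6143 to 6913. Low counts limit PERP, EDA2R and SPATA18, for which no change was detectable at this depth.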
